A study of Mus musculus with 9 samples.

Results

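The 10 genes described here encode vascular endothelial growth factors (Vegfa, Vegfb), their receptors (Kdr, Flt1), the angiopoietins (Angpt1, Angpt2), the Tie receptors (Tek, Tie1) and a pair of endothelial SoxF transcription factors (Sox17, Sox18). They were chosen by symbol from the 13890 genes in the table of heart RNA counts, and all 10 were among the 13364 genes tested. The hearts came from 9 male NSG mice, an immunodeficient strain that accepts human cells. All entered the experiment at 8 weeks of age and were followed for about 3 weeks after surgery on the spleen. The sham-operated group is S (animals 2, 3 and 5). The group labelled T (animals 11, 12 and 15) is labelled as carrying HCT116 cells, a human colorectal cancer line, in the spleen. The A + T group (animals 20, 21 and 22) is labelled as carrying the same cells with ACVR2B/Fc. In the study, sham mice and tumour hosts without ACVR2B/Fc both received weekly saline injections, and the treated hosts received weekly injections of ACVR2B/Fc. This agent is a soluble activin receptor fused to an antibody Fc fragment that binds activins, myostatin and related ligands. Each group is 3 hearts, NSG hosts lack T, B and NK cells, and no library is labelled as from mice given ACVR2B/Fc without HCT116 cells.

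The group labelled T needs care. Across the genes that the study lists as changed, the differences between these libraries and S were not those given there for mice with tumour cells, but those given for sham mice treated with ACVR2B/Fc. Over these 429 genes, the log2 fold changes of T vs. S had a Pearson r of 0.275 with those listed for tumour hosts. Against those listed for ACVR2B/Fc without tumour cells, r was 0.9999. The log2 fold changes of A + T vs. T also differed from those listed for that comparison (r = 0.266). Whether the labels or that list hold the error could not be settled, and T below means only the libraries that carry this label. The libraries held 12392222 to 19732471 counts, at which 3 counts correspond to 0.152 to 0.242 CPM (counts scaled to the size of the library). The 10 listed markers of cardiomyocytes summed to between 57149 and 87763 CPM in each library. Airway and lung epithelial markers, which the heart should lack, summed to 1448 CPM in animal 22 of A + T, to 104 in animal 12 of T, and to between 0.868 and 2.74 in the other libraries. Values without animal 22 are given where they change a result.

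VEGF-A, made by cardiomyocytes and other cells, signals through KDR (VEGFR2) on endothelial cells to promote their survival, permeability and sprouting. FLT1 (VEGFR1) binds VEGF-A tightly with weak signalling and so acts largely as a trap, and it is also the receptor of VEGF-B. Angiopoietin 1, from perivascular cells, activates the receptor TIE2 (the product of Tek) and keeps vessels quiescent, whereas angiopoietin 2, released by endothelial cells, often opposes it, and TIE1 modulates TIE2. SOX17, SOX18 and SOX7 form the SoxF family, which acts in arterial and lymphatic specification.

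Promoter windows were found in RefSeq (build GRCm38.p6) for 6 of the 10 members: Vegfa, Vegfb, Kdr, Flt1, Tek and Tie1. The 250 bases before the start are shown for the receptor genes Kdr and Tek, which were both lower in T, and for Flt1, which was not called. Capitals mark exact matches on either strand to CCGGAA, a form of the ETS core, or to ACAAT, a form of the SOX core. TTCCGG and ATTGT are their reverse complements. The sequences read 5′ to 3′ on the strand of the gene, and lie at chr5:75978456-75978705 (minus strand) for Kdr, at chr4:94739039-94739288 (plus strand) for Tek and at chr5:147726012-147726261 (minus strand) for Flt1.
Kdr: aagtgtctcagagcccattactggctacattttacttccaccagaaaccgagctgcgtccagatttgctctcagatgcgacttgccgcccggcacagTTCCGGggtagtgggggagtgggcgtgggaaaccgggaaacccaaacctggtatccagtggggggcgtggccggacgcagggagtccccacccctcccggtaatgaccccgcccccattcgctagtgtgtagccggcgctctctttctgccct
Tek: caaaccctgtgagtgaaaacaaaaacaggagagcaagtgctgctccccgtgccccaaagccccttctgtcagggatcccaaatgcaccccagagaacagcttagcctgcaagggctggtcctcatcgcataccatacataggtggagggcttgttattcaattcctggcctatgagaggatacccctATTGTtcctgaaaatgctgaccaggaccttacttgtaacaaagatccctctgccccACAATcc
Flt1: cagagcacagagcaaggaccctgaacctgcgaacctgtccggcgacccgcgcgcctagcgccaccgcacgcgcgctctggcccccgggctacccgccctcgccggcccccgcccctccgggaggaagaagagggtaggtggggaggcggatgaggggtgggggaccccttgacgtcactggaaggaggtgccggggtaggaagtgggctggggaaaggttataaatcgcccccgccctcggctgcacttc

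Kdr held 1 exact match to CCGGAA, which begins 153 bases before the start. Tek held 2 exact matches to ACAAT, at 63 and 7 bases before the start. Neither these motifs nor the hypoxia response element core ACGTG or the SMAD box CAGAC was found in the windows of Flt1, Tie1 and Vegfb, searched over 300 bases from 250 before to 50 after the start. The first Vegfa window held 2 SMAD boxes, and a second window listed for Vegfa, inside the gene and with final bases found in no GENCODE transcript of it, held 1 ACGTG and 2 SMAD boxes. Such letters are common: of 32851 mouse promoter windows, 14.9% held CCGGAA, 31.0% ACAAT, 19.6% ACGTG and 49.6% CAGAC.

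In the libraries labelled T, Kdr, Tek, Tie1, Angpt2 and Vegfa were lower than in S, and Sox17 was higher. The falls were 2.01-fold for Kdr, 1.79-fold for Tek, 1.47-fold for Tie1, 2.87-fold for Angpt2 and 1.40-fold for Vegfa, and Sox17 rose 1.70-fold (n = 3 per group). These 6 genes passed an adjusted P-value of 0.05 (edgeR's quasi-likelihood test, Benjamini-Hochberg over all genes tested), 5 lower and 1 higher, where 11% of all genes tested were lower and 10.3% higher. With the study's thresholds (P under 0.05 and a change of at least 1.5-fold), Kdr, Tek and Angpt2 were lower and Sox17 higher, against 9.01% lower and 5.2% higher over all genes tested. The same 6 genes had no overlap between the groups, which held for 42.6% of genes tested. The median log2 fold change was −0.52 over the 10 genes and −0.0038 over all genes tested. In bulk heart RNA, fewer cells of a type and less RNA per cell cannot be told apart.

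**Figure D1:**
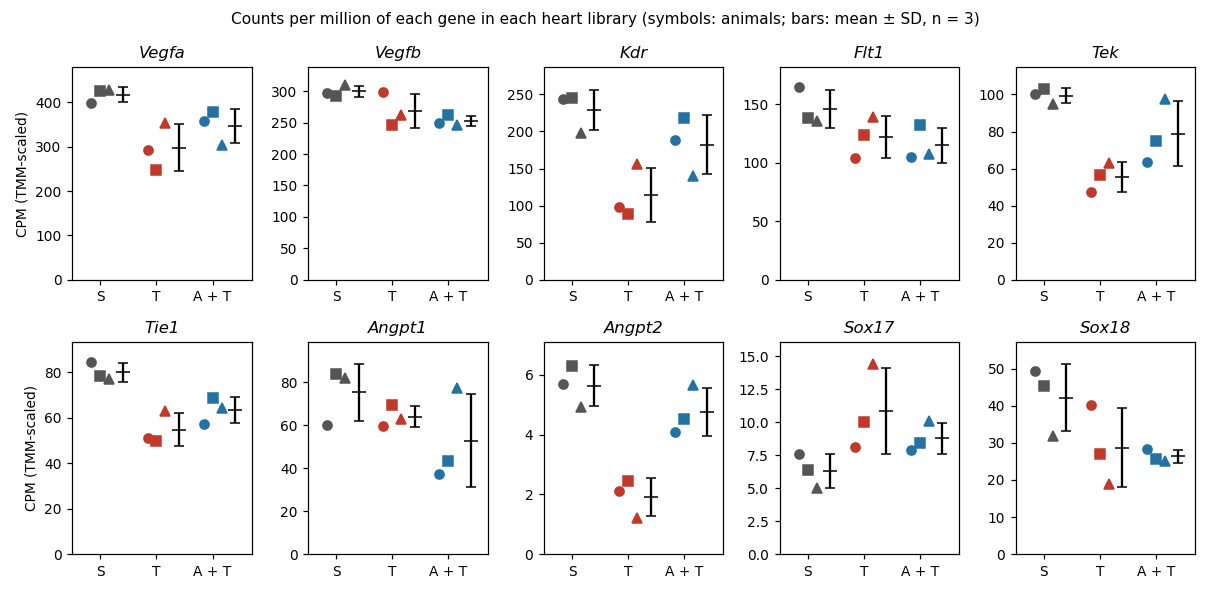
CPM (y axes, starting at 0) of the 10 genes in the 9 heart libraries, by group (x axes), with each symbol an animal and each bar the mean ± SD of 3 animals. Kdr, Tek, Tie1, Angpt2 and Vegfa lie lower in every library labelled T than in every S library, and Sox17 lies higher.

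Among the ligands, Vegfa (chr17:46016993-46032369, minus strand) was at 399, 426 and 429 CPM in S, at 294, 248 and 354 CPM in T and at 359, 379 and 304 CPM in A + T. All T and all A + T libraries were below the lowest S library. The log2 fold change in T vs. S was −0.49 (standard error, SE, of 0.13, adjusted P = 0.0230). This call was among the less stable. Leaving out any S animal, or animal 11 or 12 of T, gave adjusted P-values from 0.0508 to 0.0735 with log2 fold changes between −0.51 and −0.37. Vegfb (chr19:6982473-6987651, minus strand), the ligand of FLT1, was at 298, 292 and 309 CPM in S, at 298, 245 and 261 CPM in T, and at 249, 262 and 246 CPM in A + T. It did not pass the test in T vs. S (log2 fold change −0.16, 95% interval −0.35 to 0.03, adjusted P = 0.215), and the groups overlapped.

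Of the VEGF receptors, Kdr (chr5:75932827-75978458, minus strand) had 244, 245 and 198 CPM in S and 97.7, 89.2 and 156 CPM in T, so that the highest T library stayed below the lowest S library. In A + T it had 189, 218 and 139 CPM, between the other groups and overlapping both. The log2 fold change in T vs. S was −1.01 (SE 0.22, adjusted P = 0.00854), and it kept its call with each animal left out in turn (−1.28 to −0.86). Flt1 (chr5:147561604-147726011, minus strand) had 165, 138 and 135 CPM in S, 104, 123 and 139 CPM in T, and 105, 132 and 107 CPM in A + T. The T library of animal 15 exceeded 2 of the S libraries, and the log2 fold change of −0.26 (95% interval −0.55 to 0.03) did not pass the test (adjusted P = 0.186).

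Both Tie receptor genes fell. Tek (chr4:94739289-94874976, plus strand) was at 100.1, 103 and 95.0 CPM in S and at 47.1, 56.7 and 62.8 CPM in T, and the groups did not overlap (log2 fold change −0.84, SE 0.15, adjusted P = 0.00378). In A + T it was at 63.4, 75.0 and 97.8 CPM, where the highest value is that of animal 22. Tie1 (chr4:118471191-118490061, minus strand) was at 84.5, 78.1 and 76.8 CPM in S, at 51.2, 49.7 and 62.9 CPM in T and at 57.3, 68.7 and 64.1 CPM in A + T. Every T and A + T library was below every S library, and the log2 fold change in T vs. S was −0.55 (SE 0.10, adjusted P = 0.00482). Tek and Tie1 kept their calls in T vs. S with each animal left out.

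Of the angiopoietins, Angpt2 (chr8:18690263-18741562, minus strand) fell most of the 10 genes. It was at 5.69, 6.29 and 4.92 CPM in S, at 2.11, 2.44 and 1.22 CPM in T, and at 4.08, 4.52 and 5.66 CPM in A + T. These rest on few reads, from 13 counts in animal 15 of T to 124 in animal 3 of S. All T libraries were below all S and all A + T libraries, and the log2 fold change in T vs. S was −1.52 (SE 0.25, adjusted P = 0.00223; −1.72 to −1.30 with each animal left out, always called). Angpt1 (chr15:42424723-42676977, minus strand) was at 59.9, 83.9 and 82.0 CPM in S and at 59.6, 69.6 and 63.0 CPM in T, with overlap and a log2 fold change of −0.23 (95% interval −0.75 to 0.29, adjusted P = 0.518). In A + T it was at 37.3, 43.3 and 77.5 CPM, so animal 22 stood apart at 1.92 times the mean of the other A + T animals.

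The Sox genes went different ways. Sox17 (chr1:4490931-4497354, minus strand) had 7.57, 6.34 and 4.99 CPM in S, 8.12, 9.98 and 14.4 CPM in T, and 7.85, 8.40 and 10.1 CPM in A + T. Every T and A + T library was above every S library, although the gap between the highest S and the lowest T library was small. The log2 fold change in T vs. S was 0.76 (SE 0.22, adjusted P = 0.0351), and the call was lost without animal 3 or 5 of S or animal 12 or 15 of T (adjusted P from 0.0592 to 0.114, log2 fold change 0.52 to 0.81). Sox18 (chr2:181669836-181671640, minus strand) had 49.4, 45.3 and 32.0 CPM in S, 40.1, 27.1 and 19.0 CPM in T, and 28.3, 25.5 and 25.2 CPM in A + T. Its T libraries spread widely and overlapped S, and the log2 fold change of −0.55 (95% interval −1.06 to −0.03) did not pass the test (adjusted P = 0.120). Without animal 11 of T it was −0.87 (adjusted P = 0.0231).

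**Figure D2:**
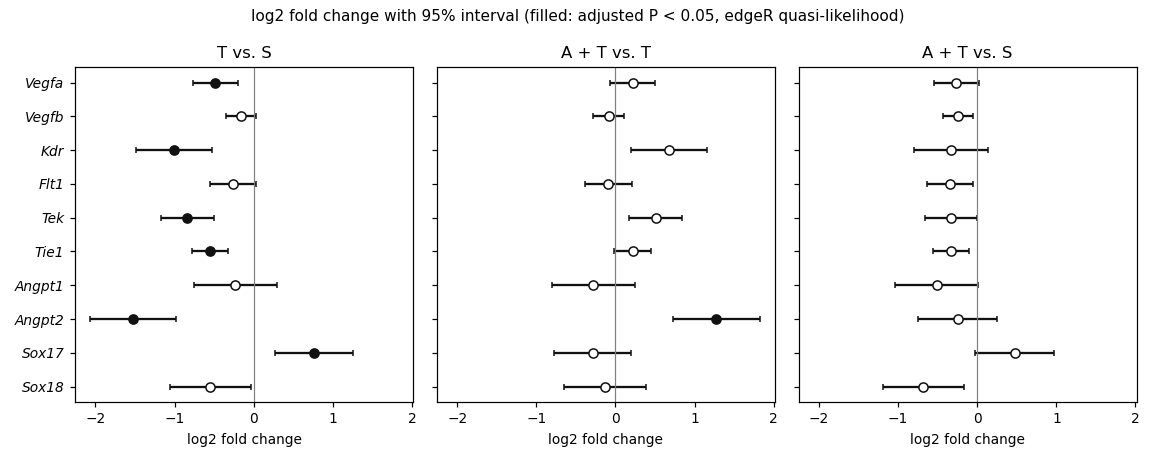
log2 fold change (x axes) of each gene with its 95% interval in the 3 comparisons, with filled points for an adjusted P-value under 0.05 in edgeR's quasi-likelihood test. T vs. S has 6 filled points, A + T vs. T only that of Angpt2 at 1.27, and A + T vs. S none.

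A + T vs. T asks how the libraries labelled HCT116 with ACVR2B/Fc differ from those labelled HCT116 alone. It shares the T libraries with T vs. S, so the direction of one bears on the other. Angpt2 rose 2.42-fold and was the only member called (log2 fold change 1.27, SE 0.25, adjusted P = 0.0195), where 3.09% of all genes tested were higher. The call was lost without animal 11 of T (adjusted P = 0.0759) and when the fit held only these groups (adjusted P = 0.0651), with log2 fold changes of 1.33 and 1.28. Kdr, 1.60-fold higher, passed only the study's thresholds together with Angpt2, against 6.5% of genes tested that were higher. Its log2 fold change was 0.68 (SE 0.22, adjusted P = 0.0932), and it was 0.84 without animal 22 (adjusted P = 0.0329) and 0.96 without animal 15 of T (adjusted P = 0.0239). Tek and Angpt2 had no overlap between A + T and T, which held for 25.4% of genes tested. For Tek the gap was small, from 62.8 CPM in animal 15 of T to 63.4 CPM in animal 20 of A + T. The log2 fold change of Tek was 0.51 (SE 0.15, adjusted P = 0.0776), and 0.32 without animal 22 (adjusted P up to 0.255 over the animals left out). Without animal 20 of A + T it was 0.64 and was called (adjusted P = 0.0449).

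The other members were not called in A + T vs. T. The log2 fold changes were 0.22 for Vegfa (95% interval −0.06 to 0.51) and 0.22 for Tie1 (−0.01 to 0.45). They were −0.09 for Vegfb (−0.28 to 0.10), −0.09 for Flt1 (−0.38 to 0.20), −0.29 for Sox17 (−0.78 to 0.20) and −0.13 for Sox18 (−0.66 to 0.39). Angpt1 had a log2 fold change of −0.28 (95% interval −0.80 to 0.25, adjusted P = 0.531), but −0.67 without animal 22 (adjusted P = 0.0231). Animal 22 is the library with the lung markers, and their part in its Tek and Angpt1 levels was not tested.

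A + T vs. S asks how far the A + T hearts stood from sham. No member passed an adjusted P-value of 0.05 in edgeR's quasi-likelihood test, where 3.64% of all genes tested were lower and 4.67% higher. At an unadjusted P under 0.05, 5 members were lower, Vegfb, Flt1, Tek, Tie1 and Sox18, as were 12.5% of all genes tested. DESeq2 called 2, Tie1 and Sox18, both lower, as were 5.33% of genes. The log2 fold changes were −0.33 for Tie1 (adjusted P = 0.0753), −0.35 for Flt1 (adjusted P = 0.126), −0.25 for Vegfb (adjusted P = 0.104) and −0.33 for Tek (adjusted P = 0.188). Sox18, at −0.68 (95% interval −1.20 to −0.17, adjusted P = 0.0968), was the only member past the study's thresholds, which 3.09% of genes tested passed as lower. Vegfa, Vegfb, Flt1, Tie1, Sox17 and Sox18 had no overlap with S, which held for 32.4% of genes tested. Angpt1 and Tek were called without animal 22, at −0.90 (adjusted P = 0.00754) and −0.52 (adjusted P = 0.0288). Angpt2 was −0.25 (95% interval −0.75 to 0.25) and Kdr −0.33 (−0.80 to 0.14), both overlapping S.

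Of the 6 other VEGF ligands, receptors and co-receptors in the table, 4 were lower in T than in S and 2 were not called, with a median log2 fold change of −0.71. Vegfc, the ligand of the lymphatic receptor FLT4, was at 9.34, 8.52 and 6.87 CPM in S, at 3.96, 2.91 and 5.24 CPM in T and at 7.67, 7.39 and 7.62 CPM in A + T. It fell by 1.05 on the log2 scale in T vs. S (adjusted P = 0.00531) and rose by 0.93 in A + T vs. T (adjusted P = 0.0300). The co-receptor Nrp1, which presents VEGF-A to KDR, was at 250.2, 265 and 267 CPM in S, at 124, 146 and 152 CPM in T and at 238, 243 and 178 CPM in A + T (log2 fold change −0.89 in T vs. S, adjusted P = 0.00109, and 0.64 in A + T vs. T, adjusted P = 0.0186). Nrp2 was at 66.3, 59.6 and 59.7 CPM in S, at 26.0, 24.9 and 35.0 CPM in T and at 43.3, 41.8 and 36.0 CPM in A + T. It fell by 1.12 in T vs. S (adjusted P = 0.000389), was 0.50 higher in A + T than in T (adjusted P = 0.0481) and was 0.62 lower in A + T than in S (log2 fold change −0.62, adjusted P = 0.0179). Flt4 fell in T vs. S (−0.53, adjusted P = 0.0213, a call lost without animal 2 of S or animal 11 or 12 of T) and in A + T vs. S (−0.60, adjusted P = 0.0285), and did not pass the test in A + T vs. T (−0.06, adjusted P = 0.836). Figf, which encodes VEGF-D, and Pgf, which encodes a further FLT1 ligand, were not called in any comparison by edgeR's quasi-likelihood test, and DESeq2 called Figf in A + T vs. S (adjusted P = 0.0483). The 3 calls in A + T vs. T were all lost without animal 11 of T, animal 20 or animal 21 of A + T, and when the fit held only these groups. With each of the 9 animals left out in turn, the call in A + T vs. T held in 6 fits for Nrp1, in 4 for Vegfc and in 2 for Nrp2. The 2 calls in A + T vs. S were lost without animal 2 or 3 of S, and that of Flt4 also without animal 20 or 21 of A + T.

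The angiopoietin partners were not called in any comparison by edgeR's quasi-likelihood test. In T vs. S 1 of the 2 tested, Svep1, had an unadjusted P under 0.05, where 18.1% of all genes tested were lower and 17.3% higher. In that comparison 1 was called by DESeq2 or without animal 22. In the other comparisons none had an unadjusted P under 0.05. Ptprb, an endothelial phosphatase that acts on TIE2, had log2 fold changes of −0.32 in T vs. S (adjusted P = 0.211) and 0.15 in A + T vs. T (adjusted P = 0.659). Svep1, a matrix protein that binds TIE1, had −0.66 (adjusted P = 0.0949) and 0.34 (adjusted P = 0.488). Angpt4 had at most 20 counts in any library and was not tested.

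The third SoxF gene, Sox7, was at 27.7, 24.1 and 21.5 CPM in S, at 13.0, 13.8 and 8.98 CPM in T and at 13.5, 14.3 and 12.4 CPM in A + T. It was lower than in S in both other groups, by 1.02 on the log2 scale in T (log2 fold change −1.02, adjusted P = 0.00166) and by 0.87 in A + T (−0.87, adjusted P = 0.0106, a call lost without animal 2 of S). Of 20 tested transcription factors of endothelial cells, including Sox7, 7 fell in T vs. S and none rose (4 without animal 2 or 3 of S). The largest falls beside Sox7 were those of Foxc2 at −1.20 (adjusted P = 0.00897) and Ets1, an ETS factor, at −0.96 (adjusted P = 0.00543). In A + T vs. T none of the 20 was called in edgeR's quasi-likelihood test, 4 had an unadjusted P under 0.05 and 2 were called by DESeq2. Over all genes tested, 11.8% were higher and 10.6% lower at an unadjusted P under 0.05. DESeq2 called 4.39% of them higher and 4.57% lower.

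Several endothelial markers were lower in T. Of 21 markers found across endothelial cells, none of them among the 10 genes above, 9 fell and none rose in T vs. S, and their median log2 fold change was −0.45 (5 fell without animal 11 of T). Cd93 fell by 1.16 on the log2 scale (adjusted P = 0.000205), Cdh5, the cadherin of endothelial junctions, by 0.96 (adjusted P = 0.000258) and Icam2 by 0.82 (adjusted P = 0.0456, called in 2 of the 9 fits that leave out 1 animal). In A + T vs. T 4 were higher, among them Cd93 at 0.85 (adjusted P = 0.00486) and Cdh5 at 0.42 (adjusted P = 0.0418, called in 1 of these 9 fits), and only 1 was called without animal 11 or 12 of T. In A + T vs. S 3 were lower, with Mmrn2 lowest at −0.63 (adjusted P = 0.00430). Of these markers 6 were called without animal 22 and 1 without animal 2 or 3 of S.

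Genes of sprouting tip cells showed larger differences. Of 14 such genes, one of which is Angpt2, 9 fell in T vs. S (7 to 10 with an animal left out), with a median of −0.95. Apln, the ligand apelin, was at 5.58, 8.78 and 8.46 CPM in S, at 1.05, 0.951 and 0.842 CPM in T and at 3.15, 3.73 and 4.67 CPM in A + T (log2 fold change −2.98 in T vs. S, adjusted P = 0.000115, and 2.00 in A + T vs. T, adjusted P = 0.00432). Cxcr4, a chemokine receptor, had −1.77 (adjusted P = 0.00318) and 1.91 (adjusted P = 0.00918) in these comparisons. In A + T vs. T 4 of the 14 were higher, where 1 was called when animal 11 of T was left out and 7 when animal 22 was. Of 15 genes known to be induced by VEGF, 6 fell in T vs. S (2 when animal 11 was left out), and the median was −0.22. Log2 fold changes above 0 were found for 5 of the 15, and the summed levels overlapped, at 404 to 635 CPM in S and 339 to 665 CPM in T. The largest falls were those of the immediate early genes Egr2 at −2.55 (adjusted P = 0.0114), Egr3 at −2.20 (adjusted P = 0.0421, called in 5 of the 9 fits that leave out 1 animal) and Egr1 at −2.08 (adjusted P = 0.0153).

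Of the vessel-type lists, the medians in T vs. S were −0.43 for arterial, −0.73 for venous and endocardial and −0.07 for capillary genes. Only the capillary list held calls in both directions. Among 17 arterial genes 5 fell in T vs. S (3 without animal 2 or 5 of S or 11 of T), led by Dll1 at −1.09 (adjusted P = 0.0249, called in 4 of the 9 fits that leave out 1 animal) and Unc5b at −1.06 (adjusted P = 0.000515). Among 9 tested venous and endocardial genes 4 fell (2 without animal 2 of S or 11 of T and 6 without animal 12 of T), led by Npr3 at −1.28 (adjusted P = 0.0187, called in 5 of these fits). Of 14 capillary genes, Aplnr, the apelin receptor, fell by 2.54 (adjusted P = 0.000115), as did Kdr and Tcf15, whereas Lpl, lipoprotein lipase, rose by 1.06 (adjusted P = 0.000835) and Cd36, a fatty acid transporter, by 0.31 (adjusted P = 0.0410, called in 2 of these fits). Lpl and Cd36 are also made by cardiomyocytes. The list's median of −0.07 was near that of all genes, and its 5 calls became 3 without animal 11 or 12 of T and 9 without animal 22. Some genes stand in more than 1 of these lists.

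Markers of some other cell types moved too. Of 13 genes of pericytes and smooth muscle, 8 fell in T vs. S, with a median of −0.93, and the list summed to between 884 and 1020 CPM in S and between 620 and 798 CPM in T. All 9 fibroblast genes fell, with a median of −1.31 (6 were called without animal 11 of T), and summed to 3570 to 4021 CPM in S and 1869 to 1985 CPM in T. The pan-endothelial list summed to 1465 to 1736 CPM in S, 990 to 1226 CPM in T and 1100 to 1545 CPM in A + T. The cardiomyocyte list had a median of 0.0042, with 3 of 10 genes higher and 1 lower (1 call in all without animal 3 or 5 of S or 11 of T, or with library size only). Over all genes tested, 11% were lower and 10.3% higher in T vs. S. The part of such shifts in the levels of the 10 genes was not tested.

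**Figure D3:**
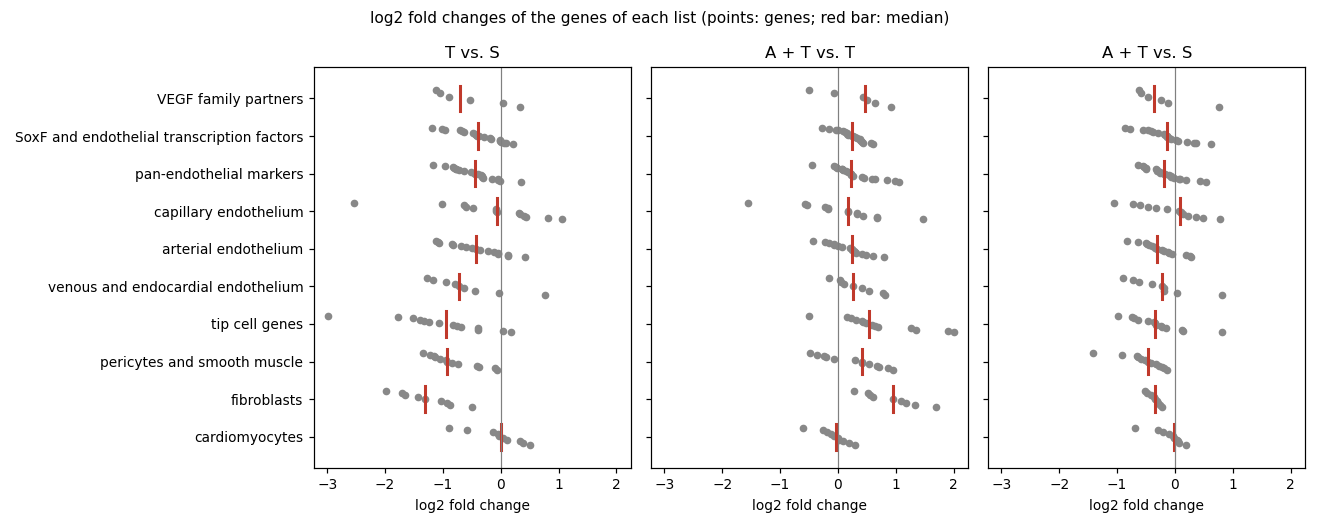
log2 fold changes (x axes) of every tested gene (grey points) of 10 gene lists in the 3 comparisons, with a red bar at each list's median. In T vs. S the medians of tip cell genes, pericytes and fibroblasts lie at −0.95, −0.93 and −1.31, and that of cardiomyocytes at 0.0042.

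Set against the mean log2 level of the 21 endothelial markers in the same library, the 10 genes differed among themselves. This endothelial level was between 5.46 and 5.65 in S and between 4.99 and 5.24 in T, and in A + T it was highest in animal 22, at 5.65. Relative to it, Sox17 was 1.21 higher in T than in S on the log2 scale, with values of −2.71, −2.91 and −3.11 in S and −1.95, −1.76 and −1.38 in T. Angpt2 was 1.09 lower (difference −1.09), Kdr 0.58 lower (−0.58) and Tek 0.39 lower (−0.39), each without overlap. Tie1 differed by −0.09, Flt1 by 0.20 and Sox18 by −0.13, with overlap. In A + T, Angpt2 relative to the markers was at −3.05, −3.13 and −3.13, within the S range of −3.13 to −2.92 or at its edge, and Sox17 was at −2.13, −2.25 and −2.31, between the other groups. The two-sided exact permutation test gave P = 0.1 for every difference without overlap, the smallest that 3 animals against 3 allow, and 0.3 after Benjamini-Hochberg adjustment over 30 such tests. With Pecam1 and Cdh5 alone as the reference, the T minus S difference of Tek was −0.16, that of Flt1 0.42 and that of Tie1 0.13.

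**Figure D4:**
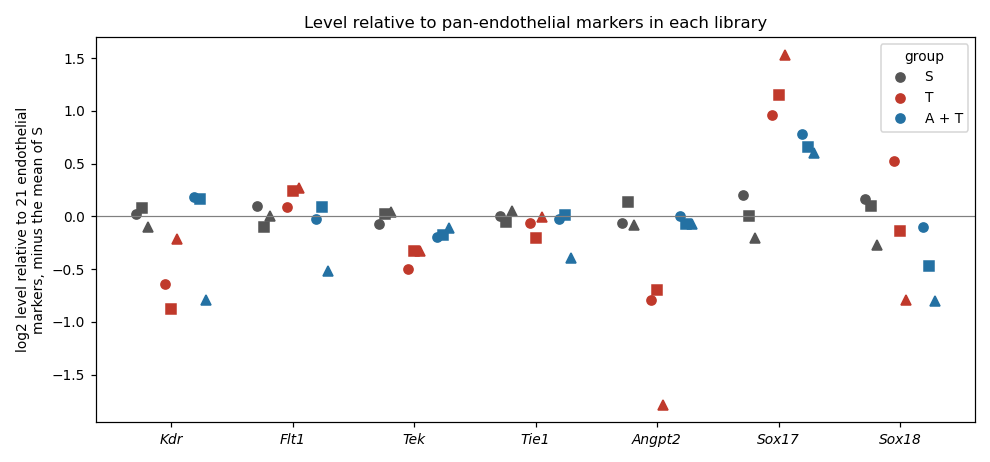
log2 level of 7 endothelial genes relative to the mean of 21 endothelial markers in the same library (y axis, minus the mean of S), with each symbol an animal. In T, Sox17 lies above S by 1.21 on average and Angpt2 below by 1.09, whereas Tie1 stays near 0.

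Ratios within a library do not depend on how libraries are scaled. The log2 ratio of Angpt2 to Angpt1 was −3.73 ± 0.33 (SD, n = 3) for S, −5.12 ± 0.50 for T and −3.41 ± 0.32 for A + T, and T overlapped neither other group. Flt1 over Kdr was −0.65 ± 0.16 for S, 0.13 ± 0.32 for T and −0.65 ± 0.25 for A + T, and T overlapped neither other group. Tie1 over Tek was −0.32 ± 0.08 in S and −0.02 ± 0.16 in T, without overlap, and −0.29 ± 0.27 in A + T. Sox17 over Sox18 was −2.74 ± 0.08 for S, −1.38 ± 0.96 for T and −1.59 ± 0.26 for A + T, and S overlapped neither. Vegfa over Vegfb was 0.48 ± 0.06 for S, 0.14 ± 0.26 for T and 0.46 ± 0.13 for A + T, with overlap between S and T. Where groups did not overlap, the two-sided exact permutation test gave P = 0.1 (0.214 adjusted over 15 tests).

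Levels of different genes were compared only on the deposited log2 scale, which is scaled by gene length. In S, Vegfb was highest at 7.86 ± 0.04 (SD, n = 3), followed by Vegfa at 6.64 ± 0.06 and Kdr at 5.38 ± 0.18. Sox18 (4.68 ± 0.33), Flt1 (4.52 ± 0.16), Tek (4.39 ± 0.06), Tie1 (4.35 ± 0.07) and Angpt1 (4.10 ± 0.27) came next and lay within their spreads of their neighbours. Angpt2 (0.68 ± 0.18) and Sox17 (0.62 ± 0.30) were lowest and did not differ beyond their spread. In T, Kdr at 4.34 ± 0.43 was within the spread of Flt1 at 4.26 ± 0.21, and Sox17 at 1.37 ± 0.41 was above Angpt2 at −0.86 ± 0.49.

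As a description over the 9 libraries, which fall into 3 groups, the genes with the most similar log2 CPM were found for each member called in any comparison. For Kdr they were Pdgfrb, a pericyte receptor (Pearson r = 0.988), Ets1 (0.988) and Sept11 (0.987). For Tek they were Tspan18 (0.982), Car8 (0.974) and Gimap6 (0.972), and for Tie1 Vav3 (0.991), Mesdc1 (0.975) and Fam101b (0.975). Angpt2 was most like Zfp365 (0.990), Id2 (0.978) and Chst15 (0.975), and Vegfa most like Adam19 (0.975), Foxs1 (0.967) and Fbxl22 (0.967). Sox17 had lower values, 0.944 with Irak3, 0.939 with Hn1 and 0.939 with Hint3.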

How the data were processed

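The authors extracted total RNA from the hearts, enriched mRNA, sequenced 75-base paired ends, used STAR to align the reads to mm10, and used featureCounts to assign uniquely mapped reads to RefSeq genes by strand. The authors deposited these counts per gene without normalization, and also deposited log2 values. For each gene the log2 CPM computed here differed from the deposited log2 value by the same amount in every library (median SD 0.00197 over 10021 genes), as for values scaled by gene length. The count table also held 3443 blank lines, which were left out.

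Groups came from the sample labels, with 1 library per animal, and per the labels all hearts were sequenced together. The study's filter was kept: a gene was dropped if its CPM fell below 0.5 in over 4 libraries, which left 13364 of 13890 genes. The 3 comparisons between groups were contrasts of a single quasi-likelihood fit to the 9 libraries (edgeR 4.0.16, R 4.3.3), normalized by TMM. Each standard error was derived from the F statistic of this fit. The edgeR steps were tested on simulated data. Levels relative to endothelial markers used log2(CPM + 0.1), with a two-sided exact permutation test (SciPy 1.17.1). Between 12392222 and 19732471 counts per library set the precision, and limits of 3 counts cover counting error only, since the reads carried no molecular identifiers.

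The alternatives were upper-quartile normalization, library size only, leaving out Rn45s (4.57 to 19.6% of counts), DESeq2 1.42.0, limma-voom (limma 3.58.1), a minimum of 10 counts in each library, no filter, a fit of the compared groups alone, the deposited log2 values with limma, each animal left out, and animals 12 and 22 left out together. The members and lists were chosen with earlier results of these data known, so their counts are not independent evidence. All 10 members, their VEGF and angiopoietin partners and Sox7 were named, with at most the 3 largest rises and falls among called genes of each other list and the 3 genes most like each called member. Coordinates are from GENCODE M21 (GRCm38) and promoters from RefSeq.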

Additional observations from a re-analysis of the deposited data

How the results depend on the processing

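No paired analysis was possible because the animal numbers in the labels are not shared between groups. In T vs. S the 6 members called were called under all 10 alternatives other than leaving out 1 animal, and Kdr, Tek, Tie1 and Angpt2 with each animal left out. In A + T vs. T the count of members past an adjusted P-value of 0.05 was 1, against 2 with library size only, 3 with DESeq2, 0 with only the groups compared, 2 without animals 12 and 22, and 0 to 3 with 1 animal left out. Past the study's thresholds it was 2, and 1 to 3 with 1 animal left out. In A + T vs. S the count was 0, against 2 with DESeq2, 1 with only the groups compared, 2 without animals 12 and 22, and 0 to 2 with 1 animal left out. Past the study's thresholds it was 1, against 2 without animals 12 and 22 and 1 to 2 with 1 animal left out. In A + T vs. T, Kdr was called with library size only and DESeq2, and Tek with DESeq2. Sox18 ranged from −0.35 to 0.18 and Flt1 from −0.20 to 0.013 in A + T vs. T with 1 animal left out, changing sign without animals 11 and 15 of T. Of the members' log2 fold changes, 540 of the recomputed values kept their direction and call, 17 gained a call, 11 lost it and 2 changed sign. Over all genes, T vs. S gave 2838 calls and 1636 with library size only, and A + T vs. T gave 786, 1198 with DESeq2 and 217 with only the groups compared. The causes were not tested. Angpt2 and Sox17 were the members with the fewest counts, which limits their precision.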

Other observations

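Genes of macrophages and other leukocytes, which can also express VEGF receptors, were higher in A + T. Of 10 such genes, 8 rose in A + T vs. S (5 without animal 2 or 3 of S), with a median log2 fold change of 0.78, and 6 rose in A + T vs. T (1 without animal 11 of T). The list summed to between 253 and 275 CPM in S, between 266 and 318 CPM in T and between 378 and 436 CPM in A + T, so every A + T library was above every other. The largest rises among the called genes in A + T vs. S were those of Ptprc, the leukocyte antigen CD45, at 1.32 (adjusted P = 0.0207 in the edgeR fit), Cd68 at 1.04 (adjusted P = 0.00469) and Adgre1, the macrophage antigen F4/80, at 0.83 (adjusted P = 0.0468, called in 2 of the 9 fits that leave out 1 animal). Itgam, an integrin of myeloid cells, had a larger difference of 2.20 that did not pass the test (adjusted P = 0.0573; called by DESeq2, adjusted P = 0.0364), and animal 21 of A + T stood highest. In T vs. S only C1qb, a complement subunit, was called, at 0.38 (adjusted P = 0.0469), and the call was lost without any 1 of the S or T animals, with upper-quartile normalization, with library size only and without animals 12 and 22.

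Of the 9 fibroblast genes, 6 were higher in A + T than in T, led by the collagen gene Col3a1 at 1.69 (adjusted P = 0.00855 in the edgeR fit), and 1 was called without animal 11 of T. Against S, 1 was lower, Gsn at −0.48 (adjusted P = 0.0123), and 6 were called without animal 20 of A + T, none without animal 2 of S or with library size only. The 6 lymphatic genes tested included 1 call in T vs. S, that of Flt4 given above, which was lost without animal 2 of S or animal 11 or 12 of T. The atrial list summed to 901 to 4868 CPM in T and 837 to 2225 CPM in A + T, against 3230 to 3290 CPM in S, and Bmp10, an atrial gene, was the 1 of 7 called in T vs. S (log2 fold change −6.07, adjusted P = 0.0135), a call lost without animal 11 or animal 12 of T. Without animals 12 and 22 together, 6 of the 7 were called. The 3 adipocyte genes and the 1 erythroid gene tested had no call and no unadjusted P under 0.05 in any comparison, and of 4 tested genes of cell division Top2a fell in T vs. S at −1.53 (adjusted P = 0.0235), a call lost without animal 3 or 5 of S or animal 11 or 12 of T.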
